A study of Mus musculus with 14 samples.

Results

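The samples described here were the 7 wild-type (WT) cultures among the 14 bulk RNA libraries of a study of TIMP2, a secreted inhibitor of matrix metalloproteinases. The other libraries came from TIMP2 knockout (KO) pups and were not compared with WT in level. Each WT library, called WT 1 to WT 7 after its replicate number, was made from forebrain microglia of a pool of 5 C57BL/6 pups of both sexes, 6 to 7 days old, that were selected on CD11b-coated beads, plated and then collected as a pellet. Each library is therefore 1 pool and no value belongs to a single pup, and p-values below measure the spread between these 7 pools. The libraries held 41538291 to 48070236 counts, and all levels are CPM, counts scaled to a library total of 1000000 after TMM normalization, given as mean ± SD with n = 7. Of 49315 genes in the table, 15882 had at least 10 counts in at least 4 of the 7 libraries. No library differed from another by less than the sampling noise. The labels name no batch, but the paper states that its own models of these libraries included batch as a covariate. Which cultures shared a batch is not given, so batch and spread between cultures cannot be told apart here.

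Microglia are the resident macrophages of the brain. They engulf and degrade debris and synapses and depend on signalling through the receptor CSF1R. In the healthy brain they carry a set of surface receptors and regulators (P2RY12, TMEM119, SALL1) that other macrophages largely lack. Grown outside the brain, microglia are known to keep their macrophage genes better than this homeostatic set, and in disease they take up a lysosomal and lipid-handling programme known as the disease-associated microglia (DAM) state.

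By share of counts, which is not corrected for length, the cathepsin genes Ctsb and Ctsd and the apolipoprotein gene Apoe led the protein-coding genes. Ctsb, which encodes the lysosomal protease cathepsin B, took the most, at 21798 ± 513 CPM, with a lowest library of 20940 (WT 5), a median of 21817 and a highest of 22477 (WT 1). Its highest library was thus 1.07-fold above its lowest. Ctsd, encoding the aspartic protease cathepsin D, stood at 11769 ± 1091 CPM (lowest 9973 in WT 5, median 11953, highest 12974 in WT 6). Apoe, the lipid carrier apolipoprotein E, reached 10701 ± 1385 CPM, between 9258 in WT 2 and 13167 in WT 4 with a median of 10662. The lipase gene Lpl (6350 ± 177 CPM), the lysozyme gene Lyz2 (6090 ± 877 CPM), the ferritin light chain gene Ftl1 (5899 ± 231 CPM) and Psap, which encodes the precursor of the saposins (5257 ± 535 CPM), followed among the first 10 together with Actb and Eef1a1.

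Lyz2 and Psap differed in which culture was highest. Lyz2 had its lowest value in WT 4 (5050 CPM), a median of 6066 and its highest in WT 5 (7674 CPM), whereas Psap was lowest in WT 5 (4334 CPM), with a median of 5209, and highest in WT 1 (6103 CPM). The remaining places among the first 20 included the macrophage pore protein gene Mpeg1 (5186 ± 258 CPM), the receptors Lrp1, Sirpa and Stab1 (3740 ± 534, 3698 ± 121 and 3267 ± 364 CPM), the protease gene Lgmn (3303 ± 67.7 CPM), the progranulin gene Grn (2779 ± 94.3 CPM), Fth1, Tmsb4x and mt-Co1. In each library its own 20 highest genes took 14.0 ± 0.486% of the counts, its first 100 took 25.6% and its first 1000 took 57.2%.

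1 of the 20 genes with the highest mean CPM was not protein-coding. Gm42418, annotated as a lincRNA at chr17:39846958-39848788 (GRCm38, plus strand), was second at 19575 ± 3055 CPM, which was 1.96 ± 0.310% of a library's counts. It ranged from 14704 CPM in WT 5 through a median of 19516 to 24406 in WT 4. Which RNA these counts came from was not tested, so they are not shown to be the level of a lincRNA. Genes of the mitochondrial genome made up 1.12 ± 0.0428% of the counts and ribosomal protein genes 2.60 ± 0.0693%.

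Levels of different genes can be set beside each other only per length, and on that scale (CPM per kilobase of exon) 3 very short annotated genes entered the first 20. Gm23935 (57 bases, chr16:11144125-11144181) was first at 42010 CPM per kilobase, Gm24270 (57 bases) stood at 4311 and the microRNA gene Mir6236 (123 bases, chr9:110281287-110281409) at 3451. The paper describes poly(A) selection and sequencing reads longer than each of these 3 genes. Their per-length values therefore cannot be read as levels of short RNAs. Gm23935 (2395 CPM) overlaps Zc3h7a (118 CPM) on the other strand, and Gm24270 (246 CPM) overlaps Peak1 (278 CPM) on the same strand. Whether reads of these partners were counted with theirs was not tested. The mature microRNA annotated within Mir6236 by RefSeq (GRCm38.p6, chr9:110281353-110281371, plus strand) is shown to make plain how small the annotated product is beside the 123-base gene that was counted, with bases 2 to 8, the seed, in capitals.
mmu-miR-6236: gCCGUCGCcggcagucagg

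Among messenger RNAs the per-length order began with Ctsd (5006 CPM per kilobase), Apoe (5005), Lyz2 (4628), Ftl1 (4402) and Ctsb (3602). It went on with mt-Co1 (3294), Actb (2989), the MHC class I light chain gene B2m (2970), Eef1a1 (2765) and Tmsb4x (2630). Psap, Ctss, the complement gene C1qb and Lgmn followed between 1916 and 1422 CPM per kilobase. Of the 19 pairs of neighbours in this order, none passed an adjusted p of 0.05 in an exact two-sided sign-flip test over the 7 libraries (lowest adjusted p = 0.09896). The smallest raw p that 7 libraries allow is 0.015625, which was reached by 3 pairs, among them Gm42418 above Ctsd in 7 of 7 libraries by 1.08 ± 0.20 on the log2 scale. Ctsd and Apoe differed by 0.0046 ± 0.19 on that scale, with Ctsd higher in 4 of 7.

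**Figure D1:**
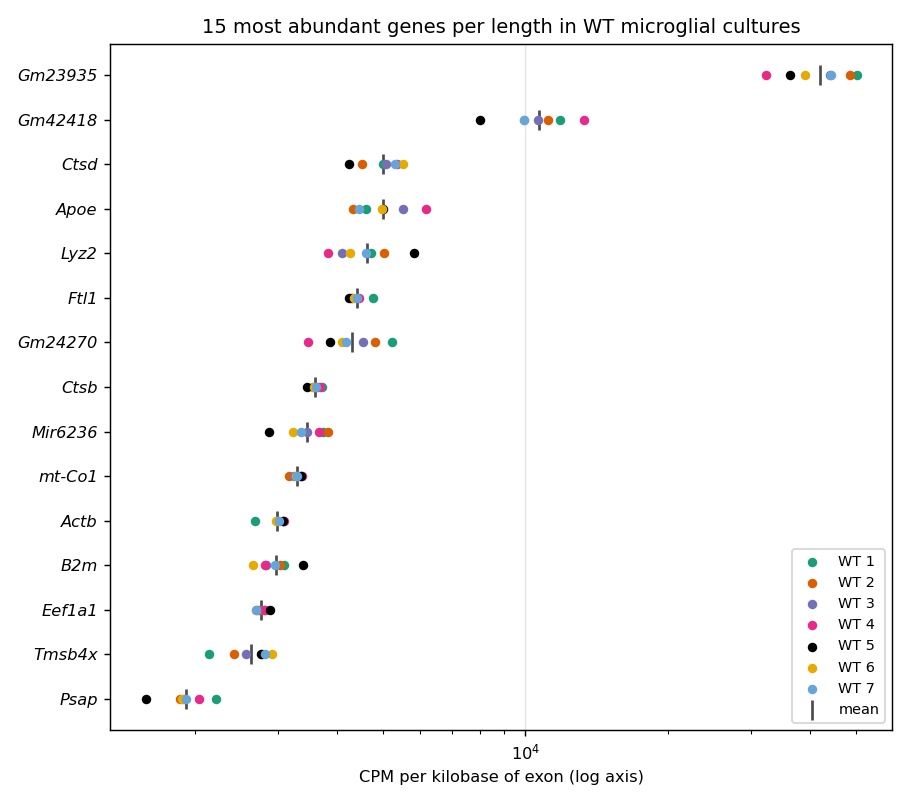
Levels of the 15 most abundant genes per length, in CPM per kilobase of exon on a log axis, with 1 coloured point per WT library and a tick at the mean. Gm23935 and Gm42418 stand above all messenger RNAs, at means of 42010 and 10691. Gm23935 is shorter than a sequencing read, so its value is not a level of a short RNA. The source of the Gm42418 counts was not tested.

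Ctsd belongs to the 29 lysosomal genes listed here, which are known as targets of the factor TFEB and its binding letters TCACGTGA. All 29 were above 100 CPM, and together they held 71800 ± 2257 CPM, or 7.18% of a library's counts. The promoter of Ctsd is given because it carries these letters and Ctsd led the per-length order of the messenger RNAs. It covers the 250 bases before the start (RefSeq, GRCm38.p6, chr7:142387828-142388077, minus strand), with the match, 99 bases before the start, in capitals.
Ctsd: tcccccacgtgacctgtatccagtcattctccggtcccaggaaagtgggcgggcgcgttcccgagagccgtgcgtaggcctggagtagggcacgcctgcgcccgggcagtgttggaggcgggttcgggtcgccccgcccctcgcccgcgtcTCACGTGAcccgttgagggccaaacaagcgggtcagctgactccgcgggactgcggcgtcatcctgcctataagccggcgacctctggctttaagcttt

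On either strand, these letters were in the same window of 3 of the 22 lysosomal genes with a RefSeq promoter (13.6%; Ctsa, Ctsd and Mcoln1) and of 245 of 27025 genes in all (0.907%). A match describes the letters and is not evidence of binding.

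The 4 genes used as markers of microglia were all detected, at very unequal levels. Csf1r, the receptor for the growth factors CSF1 and IL-34, stood at 2547 ± 266 CPM (lowest 2260 in WT 1, median 2579, highest 3021 in WT 5). Cx3cr1, the fractalkine receptor, had 965 ± 214 CPM, between 582 in WT 1 and 1190 in WT 6 with a median of 1027. P2ry12, the ADP receptor that steers microglial processes, had 40.5 ± 10.2 CPM (26.2 in WT 1, median 36.3, 53.3 in WT 7).

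Tmem119, a membrane protein used as a marker of parenchymal microglia, was at 4.90 ± 1.71 CPM, from 1.85 in WT 1 through a median of 5.71 to 6.30 in WT 4. Per length, the levels of Csf1r, Cx3cr1, P2ry12 and Tmem119 were 441, 214, 15.9 and 2.12 CPM per kilobase. Each of the 4 was lowest in WT 1, which was the lowest library of 12.9% of all genes at 1 CPM or more. All 4 were thus detected in every culture, with P2ry12 and Tmem119 at lower per-length levels than Csf1r and Cx3cr1.

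The wider homeostatic list held 25 genes, of which 23 had a mean of at least 1 CPM. Its sum was 9758 ± 778 CPM, lowest in WT 1 (8386) and highest in WT 7 (10664). Besides Csf1r, its leading members included the scavenger receptor-like gene Fcrls, with 1049 ± 110 CPM (893 in WT 1, median 1083, 1188 in WT 5). The fructose transporter gene Slc2a5 was its lowest member, at 0.375 ± 0.117 CPM. Members outside the naming rule, picked after their values were seen, were Sall1, the transcription factor of microglial identity, at 89.1 ± 9.84 CPM and Siglech at 3.89 ± 1.17 CPM.

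Genes shared by all myeloid cells were nearly all abundant. All 22 of the pan-myeloid list were above 1 CPM and summed to 23989 ± 1278 CPM, from 22936 in WT 4 to 26492 in WT 5. Lyz2, Ctss (2477 ± 113 CPM) and Laptm5, a lysosomal membrane protein gene (2148 ± 103 CPM), led it. Its lowest member, Aif1, which encodes the microglial stain IBA1, had 67.7 CPM in WT 1, a median of 85.5 and 127 in WT 5. The median SD of log2 CPM between cultures was 0.0836 for these genes and 0.263 for the 23 homeostatic ones, beside 0.104 for all genes at 1 CPM or more. The lists differ in level, and 21 of the 22 pan-myeloid genes were above 100 CPM, where the median SD of all genes was 0.0663 (100 to 1000 CPM) or 0.0741 (above 1000 CPM).

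Spread was scored by this SD, and a gene with an SD of at least 0.5 (log2) and a mean of at least 1 CPM was called variable. Of the 12702 genes at that level, 931 (7.33%) were variable. Counts of variable members below are to be read beside the share at their level, 19.9% at 1 to 10 CPM and 1.5% at 10 to 100 CPM. None of the 22 pan-myeloid genes was variable, where the share over all genes was 0.192% at 100 to 1000 CPM and 0 above that. Of the homeostatic genes 2 of 23 were, and 12 of the 25 listed were above 100 CPM. Tmem119 (SD 0.66) was at 1 to 10 CPM, where 19.9% of all genes were variable. Olfml3 (SD 0.73), a secreted glycoprotein gene with a mean of 96.8 CPM, was at a level where 1.5% were. Olfml3 had 43.0 CPM in WT 1, a median of 111 and 142 in WT 4. WT 1 was the lowest library of 15 of the 23 homeostatic genes.

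Genes of the DAM programme were abundant in these cultures. The 21 measured members summed to 64624 ± 3075 CPM, from 60589 in WT 5 to 68725 in WT 4, led by Ctsb, Ctsd and Apoe, which the lysosomal list also holds in part. Cst7, encoding cystatin F, was the lowest at 1.31 ± 0.373 CPM (0.949 in WT 5, median 1.23, 2.02 in WT 7). 1 of 21 was variable, the growth factor gene Csf1, which had 9.71 CPM in WT 5, a median of 30.4 and 47.4 in WT 4. Without WT 5 none of the 21 was variable. WT 1 was the highest library for 10 of the 21, against 17.1% of all genes, and WT 5 the lowest for 13, against 2539 of 12702 genes in all.

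Among those highest in WT 1, and named after their values were seen, was Gpnmb, a transmembrane glycoprotein gene, with 2097 CPM in WT 5, a median of 2341 and 3993 in WT 1. Spp1, which encodes osteopontin, had 927 CPM in WT 6, a median of 1105 and 2107 in WT 1. Fabp5, a fatty acid carrier gene, had 428 CPM in WT 5, a median of 503 and 826 in WT 1. The culture with the lowest Cx3cr1, P2ry12 and Tmem119 was also the one with the highest Gpnmb, Spp1 and Fabp5, 3 of the 10 members highest there. Other members went the other way. Cd52 was lowest in WT 1 (75.3 CPM, median 84.9), and Apoe was below its median there (9839 CPM, median 10662).

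Timp2, the gene deleted in the other arm, stood in WT cultures at 466 ± 36.7 CPM (lowest 400 in WT 5, median 478, highest 497 in WT 3). Its level per length was 119 CPM per kilobase and its SD 0.12.

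Other cell types were represented at low levels. The homeostatic and pan-myeloid genes together held 33747 ± 1693 CPM, whereas the lists of astrocytes, neurons, the oligodendrocyte lineage, endothelium, pericytes with fibroblasts and ependyma with choroid plexus held 637 ± 183 CPM between them. In bulk RNA, fewer cells of a type and less RNA per cell cannot be told apart. Border macrophages, the macrophages of meninges and vessels, share most of their genes with microglia, and their list stood at 5719 ± 620 CPM (4954 in WT 4, median 5599, 6929 in WT 5).

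That sum rested on scavenger and adaptor genes. Stab1, which opens it, had 3267 ± 364 CPM, Dab2 had 1512 ± 138 CPM, and the mannose receptor gene Mrc1 had 310 CPM in WT 4, a median of 410 and 678 in WT 5. Lyve1, which marks a subset of border macrophages, was near 0 (0.0356 ± 0.0403 CPM). WT 5 was the highest library for 7 of the 10 members at 1 CPM or more, beside 28.4% of all genes. 2 of the 10 were variable, Clec10a and F13a1, or 1 without WT 5. F13a1, a coagulation factor gene, was highest in WT 1 at 26.8 CPM, with a median of 6.31.

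Genes of blood cells were at low levels. The 12 monocyte and granulocyte genes summed to 6.64 ± 4.52 CPM, from 2.67 in WT 5 to 15.9 in WT 2, with the chemokine receptor gene Ccr2 at 2.60 ± 0.283 CPM and Elane, a neutrophil elastase gene, at 0.0065 ± 0.0111. The lymphocyte list summed to 8.91 ± 1.14 CPM, mostly Cd79b (6.72 ± 0.894 CPM) and Cd4, which had 0.606 CPM in WT 6, a median of 1.20 and 6.24 in WT 1. Ncr1 and Nkg7, natural killer cell genes, had no count in any library, which allows up to 0.00957 CPM over the 313330159 counts of the 7. No erythroid gene reached 1 CPM, with Hbb-bs at 0.195 ± 0.129 CPM.

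**Figure D2:**
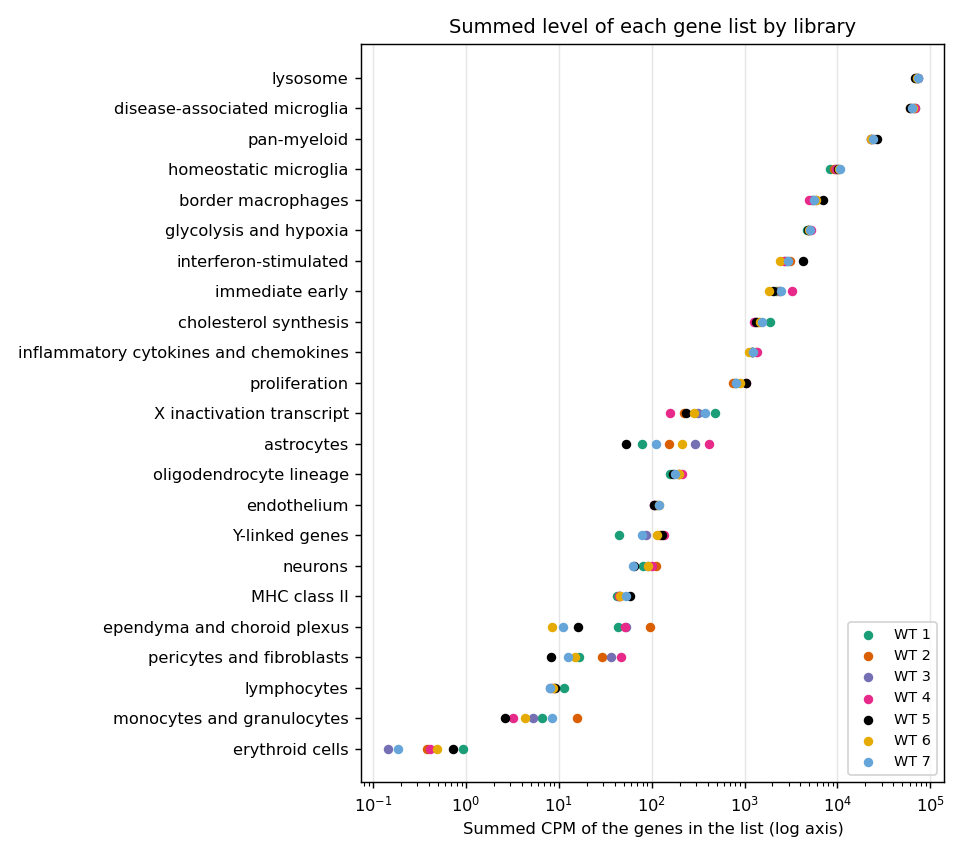
Summed level of each gene list in CPM on a log axis, with 1 point per WT library, coloured by library. The pan-myeloid list lies between 22936 and 26492 CPM, and the astrocyte list between 52.7 and 418 CPM.

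Astrocyte genes differed widely between the cultures. Their list summed to 78.1 CPM in WT 1, 155 in WT 2, 290 in WT 3, 418 in WT 4, 52.7 in WT 5, 210 in WT 6 and 112 in WT 7, a 7.93-fold range. WT 4 was the highest library for 14 of the 16 genes at 1 CPM or more, beside 21.5% of all genes, and WT 5 the lowest for 14, beside 2539 of 12702. The ratio of microglial to astrocyte genes accordingly ran from 77.6 in WT 4 to 696 in WT 5.

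Gfap, the intermediate filament gene of astrocytes, had 4.61 CPM in WT 5, a median of 17.3 and 84.8 in WT 4. Sparcl1, an astrocyte-secreted matrix protein gene, had 6.38 CPM in WT 5, a median of 20.5 and 50.9 in WT 4, and the glutamate transporter gene Slc1a3 had 3.99, 18 and 46.2 CPM in the same order. The water channel gene Aqp4 had 2.07 CPM in WT 5, a median of 11.6 and 52.4 in WT 4. The lowest member, the neurotensin receptor gene Ntsr2, was at 0.157 ± 0.0968 CPM. In all, 15 of the 16 were variable (median SD 1.10), and the background for genes as low as 1 to 10 CPM was 19.9%, for genes of 10 to 100 CPM 1.5%. With WT 4 and WT 5 both left out, 13 of the 16 stayed variable (median SD 0.743).

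The sums of neuronal, oligodendrocyte lineage and endothelial genes varied less, over 1.77-fold, 1.35-fold and 1.15-fold ranges, those of pericytes with fibroblasts over 5.70-fold and of ependyma with choroid plexus over 11.3-fold. Of the neuronal genes 9 of 16 were variable, beside 19.9% of all genes at 1 to 10 CPM and 1.5% at 10 to 100 CPM. The neuronal genes summed to 86.4 ± 18.2 CPM, from 63.7 in WT 7 to 113 in WT 2. Elavl4 led them at 14.7 ± 1.87 CPM, ahead of the microtubule protein gene Map2 (5.43 in WT 5, median 12.1, 18.1 in WT 4) and the imprinted noncoding RNA Meg3 (4.29 in WT 7, median 7.36, 15.4 in WT 2), and Tbr1, a factor of cortical neurons, was lowest at 0.0826 ± 0.0538 CPM. Without WT 5, 6 of the 16 were variable.

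Of the oligodendrocyte lineage genes 6 of 10 were variable, or 4 without WT 5, beside the same shares of all genes (19.9% and 1.5%). Their sum was 187 ± 18.9 CPM (159 in WT 1, median 193, 215 in WT 4). Cnp, a myelin enzyme gene, held 71.1 ± 6.18 CPM of this, but it overlaps Dnajc7 on the other strand. Mbp, myelin basic protein, held 64.4 ± 3.48 CPM and was steady, whereas the proteoglycan gene of precursors Cspg4 had 5.41 CPM in WT 5, a median of 15.7 and 25.1 in WT 4. Opalin, a gene of mature oligodendrocytes, was at 0.0194 ± 0.028 CPM.

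Endothelial genes summed to 112 ± 6.63 CPM with 1 of 6 variable, or 2 of 7 without WT 5. The 1 was Flt1, a VEGF receptor gene at 14.7 CPM in WT 2, a median of 18.5 and 38.1 in WT 6. Slc2a1, the glucose transporter gene that other cells also use, led them at 49.2 ± 4.80 CPM, Kdr, another VEGF receptor gene, had 15.6 ± 3.00, and the endothelial sialomucin gene Emcn had 0.0700 ± 0.0398 CPM. Of the pericyte and fibroblast genes all 5 at 1 CPM or more were variable, beside 19.9% of all genes at 1 to 10 CPM. Acta2, smooth muscle actin, had 0.772 CPM in WT 5, a median of 4.78 and 16.6 in WT 4, and the collagen genes Col1a2 (1.46, 5.11 and 11.2 CPM) and Col1a1 (1.02, 2.85 and 9.25 CPM) had the same lowest and highest libraries. Lum, a matrix proteoglycan gene, was at 0.0925 ± 0.0534 CPM.

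Ependyma and choroid plexus genes summed to 8.55 CPM in WT 6, a median of 43.7 and 96.4 in WT 2, mostly through Ttr. Ttr, transthyretin of the choroid plexus, had 6.94 CPM in WT 6, a median of 41.3 and 91.9 in WT 2. Foxj1, the factor of ciliated cells and the only other member at 1 CPM or more, was lowest in WT 5 (0.287 CPM) and highest in WT 4 (2.24 CPM). Folr1, a folate receptor gene, was at 0.875 ± 0.407 CPM and overlaps Anapc15, and Tmem212 had no count in any library.

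Across the 7 cultures the astrocyte sum was compared with 21 other sums or transcripts by Pearson correlation, with exact permutation p over all pairings and Benjamini-Hochberg adjustment. None passed an adjusted p of 0.05, and 4 had a raw p under 0.05. The nearest was the oligodendrocyte lineage, with r = 0.9275 (exact permutation p = 0.002976, adjusted p = 0.0625) and Spearman's rho = 0.9643 (exact p = 0.002778, adjusted p = 0.05833). Leaving out WT 4 and WT 5, the libraries farthest from the median astrocyte level, r was 0.9064.

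The other 3 rested more on those libraries. For pericytes and fibroblasts r was 0.8637 (exact permutation p = 0.01528, adjusted p = 0.1604; rho = 0.8214) and 0.6051 without WT 4 and WT 5. For glycolysis and hypoxia genes r was 0.7664 (exact permutation p = 0.04405, adjusted p = 0.2222; rho = 0.7143), and 0.4848 without them. For interferon-stimulated genes r was −0.7498 (exact permutation p = 0.03571, adjusted p = 0.2222; rho = −0.7500), and −0.4706 without them.

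**Figure D3:**
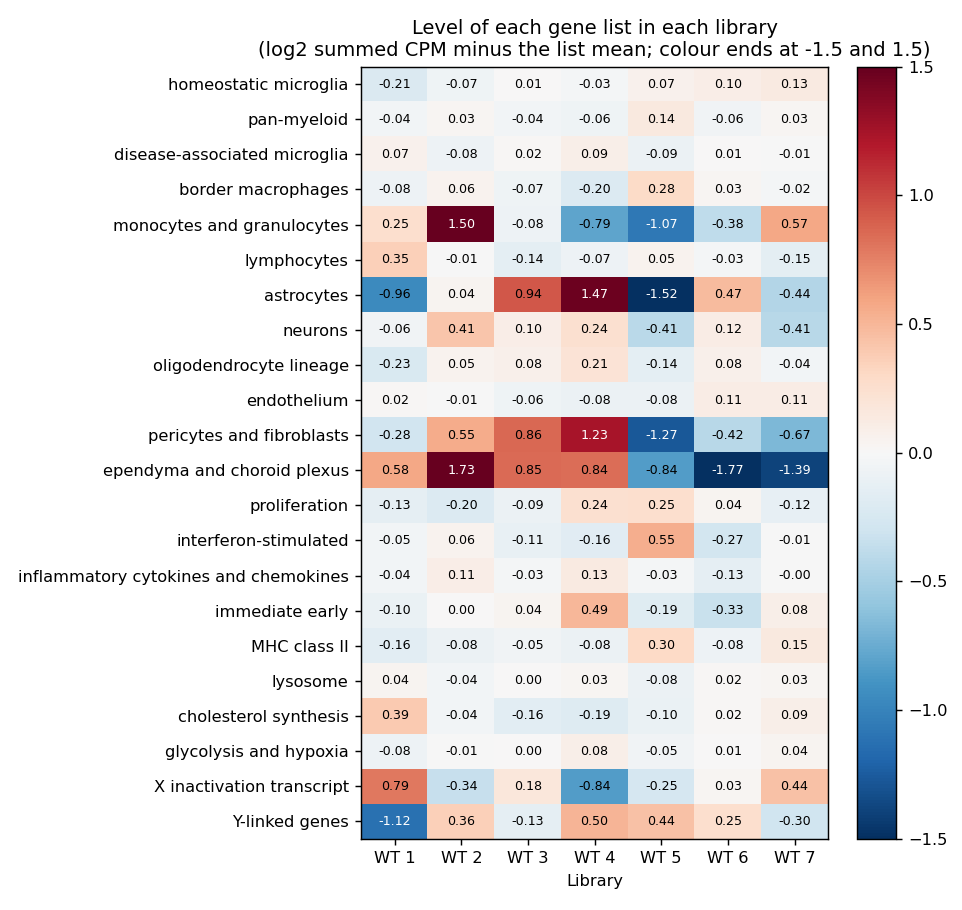
Level of each gene list in each WT library as log2 summed CPM minus the list's mean over the 7 libraries, with the value in each cell. Astrocyte genes range from −1.52 in WT 5 to 1.47 in WT 4, interferon-stimulated genes stand at 0.55 in WT 5, and cholesterol synthesis genes at 0.39 in WT 1.

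Interferon-stimulated genes, which type I interferon switches on, set WT 5 apart. Their 23 members summed to 4302 CPM in WT 5 and to between 2439 (WT 6) and 3065 (WT 2) in the other 6 cultures. WT 5 was the highest library for 22 of the 23, beside 28.4% of all genes, and WT 6 the lowest for 18, beside 13.0%. Irf7, the factor that amplifies interferon production, had 255 CPM in WT 6, a median of 324 and 549 in WT 5. The nucleic acid sensor gene Ifi204 had 335 CPM in WT 6, a median of 385 and 516 in WT 5, and Oasl2 266, 308 and 416 CPM in the same libraries.

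The differences were modest in size. 1 of the 23 was variable, Ifi44, and the median SD was 0.293, or 0.130 without WT 5, when none was variable. Irf7 overlaps Phrf1 on the other strand. The chemokine gene Cxcl10, the exception and the lowest member, had 1.79 CPM in WT 1, a median of 2.46 and 3.89 in WT 4.

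Interferon-stimulated promoters are known for the response element whose core reads GAAA, any 2 bases and GAAA again. On either strand this pattern was within 250 bases before the start in 10 of the 16 listed genes with a RefSeq promoter (62.5%) and in 936 of 27025 genes (3.46%). The promoter of Cxcl10 is shown because it holds the pattern although its level did not follow the other members. It lies at chr5:92348890-92349139 (GRCm38.p6, minus strand), with the match, 213 bases before the start, in capitals.
Cxcl10: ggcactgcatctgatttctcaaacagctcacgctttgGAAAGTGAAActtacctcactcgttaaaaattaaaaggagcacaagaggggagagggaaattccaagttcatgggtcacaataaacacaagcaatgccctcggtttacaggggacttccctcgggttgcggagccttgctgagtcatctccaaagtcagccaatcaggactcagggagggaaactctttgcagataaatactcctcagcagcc

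Genes of cholesterol synthesis and uptake set WT 1 apart in the same way. All 20 members at 1 CPM or more were highest in WT 1, beside 17.1% of all genes, and the list summed to 1893 CPM there against a median of 1400. Srebf2, the factor that drives the pathway, had 238 CPM in WT 4, a median of 265 and 321 in WT 1. The synthase gene Hmgcs1 had 123 CPM in WT 5, a median of 146 and 187 in WT 1. None of the 20 was variable (median SD 0.215).

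Immediate early genes, which respond within minutes to handling or stimulation, were highest in WT 4. Their sum was 3268 CPM there, with a lowest of 1846 in WT 6 and a median of 2329, and WT 4 was the highest library for 10 of 18 members, beside 21.5% of all genes. Zfp36, which destabilizes cytokine messages, had 305 CPM in WT 6, a median of 394 and 648 in WT 4. Klf6 (397 ± 41.3 CPM) and Atf3 (279 ± 25.2 CPM), by contrast, were highest in WT 1, and Egr3 was the lowest member at 0.468 ± 0.0994 CPM. Beside 7.33% of all genes, 19.9% of those at 1 to 10 CPM and 1.5% of those at 10 to 100 CPM, 6 of the 18 were variable, or 3 without WT 4. Among these, named after their values were seen, the AP-1 subunit gene Junb had 164 CPM in WT 6 and 533 in WT 4, and the phosphatase gene Dusp1 had 82.6 CPM in WT 6 and 404 in WT 4.

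Inflammatory cytokines and chemokines had a nearly level sum of 1235 ± 78.1 CPM, but 6 of 18 members were variable. The share was 7.33% over all genes, 19.9% at 1 to 10 CPM and 1.5% at 10 to 100 CPM. The chemokine genes Ccl9 (558 ± 43.9 CPM), Ccl3 (143 in WT 4, median 189, 210 in WT 1) and Cxcl16 (131 ± 18.2 CPM) led it, and the nitric oxide synthase gene Nos2 was near 0 (0.0410 ± 0.0236 CPM). Tnf, named after its values were seen, had 15.8 CPM in WT 6, a median of 20.9 and 51.8 in WT 4. Without WT 4, 4 of the 17 members then at 1 CPM or more were variable.

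Proliferation genes were detected in every culture and were highest in WT 4 or WT 5. Pcna, the DNA polymerase clamp, had 329 ± 14.4 CPM, the replication helicase genes Mcm6 and Mcm3 91.3 ± 11.4 and 69.6 ± 8.07 CPM, and the mitotic cyclin gene Ccnb2 4.68 ± 1.06 CPM. WT 4 was the highest library for 18 of the 27 members, beside 21.5% of all genes, and WT 5 for the other 9, beside 28.4%. Mcm6 and Mcm3 belonged to the 9, at 112 and 84.8 CPM in WT 5. 2 of the 27 were variable, Plk1 and Ube2c, none without WT 4 and 3 without WT 5.

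MHC class II genes, for antigen presentation, were at low levels. The invariant chain gene Cd74 had 25.3 CPM in WT 4, a median of 26.8 and 38.7 in WT 5, H2-DMb1 had 13.6 ± 0.886 CPM, and the transactivator gene Ciita was at 0.160 ± 0.0711 CPM. H2-DMa, at 1.85 ± 0.251 CPM, overlaps the far more abundant Brd2. None of the 4 members at 1 CPM or more was variable, with a median SD of 0.216 beside 0.104 for all genes. Lysosomal genes had a median SD of 0.0641, with none of 29 variable, close to all genes of their level (0.0663 at 100 to 1000 CPM and 0.0741 above). Their lowest member was the sialidase gene Neu1 at 110 ± 7.15 CPM. Glycolysis genes were led by Pkm (1740 ± 112 CPM), Gapdh (994 ± 38.8 CPM) and Aldoa (663 ± 32.6 CPM), with 1 of 15 variable, the oxygen sensor gene Egln3, and the hypoxia-induced peptide gene Adm lowest at 0.390 ± 0.136 CPM.

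Over the whole transcriptome the cultures were alike for abundant genes and unlike for rare ones. The median SD was 0.104, and 48.2% of the 12702 genes had an SD under 0.1. Of genes with 1 to 10 CPM, 832 of 4191 (19.9%) were variable, of those with 10 to 100 CPM 95 of 6338 (1.5%), and of those with 100 to 1000 CPM 4 of 2081 (0.192%). None of the 92 genes above 1000 CPM was variable. The 4 variable genes above 100 CPM were Xist, Junb, Dusp1 and the G-protein regulator gene Rgs1. At the threshold, Myo16, Adcy6 and Hdhd3 were just inside with an SD of 0.50, and Sox11, 2410003L11Rik and Nmnat2 just outside with 0.499.

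The variable genes had a shared order of libraries. WT 4 was the highest library for 685 of the 931 (73.6%) and WT 5 the lowest for 706 (75.8%), and 610 had both. Among all 12702 genes WT 4 was highest for 2727 (21.5%) and WT 5 lowest for 2539. The first principal component held 66% of the variance, or 33.3% with each gene scaled to unit variance, with scores from −35.5 in WT 4 and −22.6 in WT 3 to 44.9 in WT 5. Of the 12702 genes, the 100 leading ones at the WT 5 end held 4 of the 23 interferon-stimulated and 3 of the 10 border macrophage genes, with Cd4 and Ccl12. The 100 at the WT 4 end held 5 of the 16 astrocyte genes, with Olig1, Acta2 and Cxcl1. The second held 11.7% and separated WT 1 and WT 2 (15.1 and 16.6) from the other cultures.

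The largest spread belonged to S100a9, a calcium-binding protein of granulocytes, with 0.0221 CPM in WT 5, a median of 1.10 and 6.10 in WT 2 (SD 2.22). Its counts ran from 1 to 273, so the low end rests on a single count. Ptx3, a secreted pattern-recognition protein gene, had 0.552 CPM in WT 5, a median of 4.69 and 18.5 in WT 4 (SD 1.74). Tnc, the matrix protein tenascin C, had 2.36 CPM in WT 5, a median of 19.2 and 56.1 in WT 4 (SD 1.57). Nog, the BMP inhibitor noggin, had 0.508 CPM in WT 5, a median of 3.20 and 11.5 in WT 4 (SD 1.63).

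The rest of the first 20 included the matrix genes Col16a1, Col12a1 and P4ha3, the keratin gene Krt18, the reactive astrocyte gene Serpina3n, the chemokine gene Cxcl1, Aqp4, Dysf, Gm2115, Six3os1, Dlk1, Ddit4l, Tnfrsf19, Cdc42ep1 and Gpx8, with SDs between 1.53 and 1.85. WT 4 was the highest library for 18 of the 20 and WT 5 the lowest for 19. Six3os1 shares its span with the antisense gene Six3. The median level of the 20 was 1.49 CPM.

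At the other end, Mtfr1l, a mitochondrial protein gene, had 69.4 ± 0.557 CPM and lay between 68.7 and 70.1 CPM in all 7 libraries. The chaperone gene Hspa4 (288 ± 2.53 CPM), the proteasome gene Psmd7 (78.8 ± 0.75 CPM), the ATPase gene Vcp (401 ± 4.07 CPM) and the respiratory gene Sdha (235 ± 2.38 CPM) were as steady. Zfr, Api5, Adipor1, Senp3 and Dnm1l completed the 10 steadiest, each with a highest library 1.03-fold above its lowest. The SD of log2 CPM of Mtfr1l (0.0116) was below that from counting alone (0.0259). The same held for Hspa4, Psmd7, Zfr, Api5, Senp3 and Dnm1l, but not for Adipor1, Sdha and Vcp. A place among the 10 therefore rests in part on sampling noise.

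**Figure D4:**
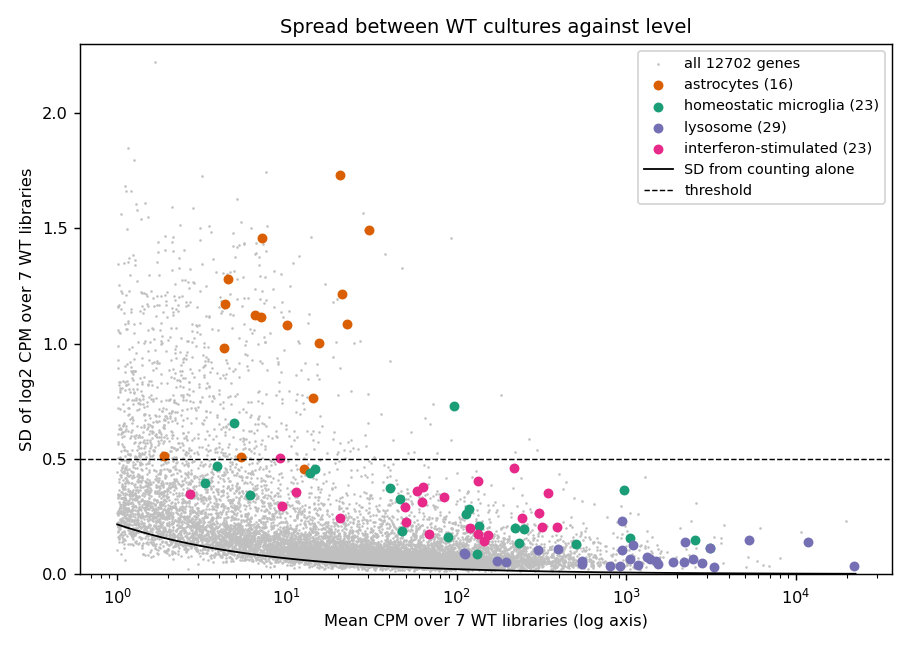
SD of log2 CPM between the 7 WT libraries against mean CPM on a log axis, with 1 grey point per gene, 4 lists in colour, the threshold of 0.5 as a dashed line and the SD from counting alone as a solid line. Of the astrocyte genes, 15 of 16 lie above the threshold, and all 29 lysosomal genes lie below it.

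The same measure was taken in 6 KO cultures, which the choice of variable genes did not use. There, 909 of 12480 genes (7.28%) were variable. Of the 723 WT-variable genes at 1 CPM or more in KO, 583 (80.6%) were variable again, with a median SD of 0.705, whereas 310 of 11678 other genes (2.65%) were, with a median SD of 0.0957. All 8 of the 20 most variable WT genes that reached 1 CPM in KO were among them. Low genes are variable more often in either set, and the labels do not say which cultures were prepared together. Whether batches shared by WT and KO cultures account for the recurrence was not tested.

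Xist and the Y-linked genes varied in opposite directions between cultures, although the labels give each pool as male and female. Xist, the noncoding RNA of the inactive X chromosome, had 157 CPM in WT 4, a median of 287 and 486 in WT 1 (SD 0.54), or an SD of 0.43 without WT 4. The 4 Y-linked genes Ddx3y, Eif2s3y, Kdm5d and Uty summed to 44.1 CPM in WT 1, a median of 114 and 136 in WT 4, and all 4 were variable. Ddx3y alone had 18.2 CPM in WT 1, a median of 43.9 and 54.9 in WT 5.

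Eif2s3y (11.9 to 40.1 CPM), Kdm5d (8.09 to 23.2) and Uty (5.96 to 20.1) were likewise lowest in WT 1. The correlation of Xist with the Y-linked sum was r = −0.9067 (exact permutation p = 0.002381) and rho = −0.9643 (exact p = 0.002778), and r was −0.9436 without WT 4 and WT 1. This relation was 1 test and stands outside the 21 above. The share of male and female pups in a pool was not given in the sources used here, and WT 1, highest in Xist, was also lowest in the 4 microglial markers, so sex and these markers cannot be told apart in that library.

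**Figure D5:**
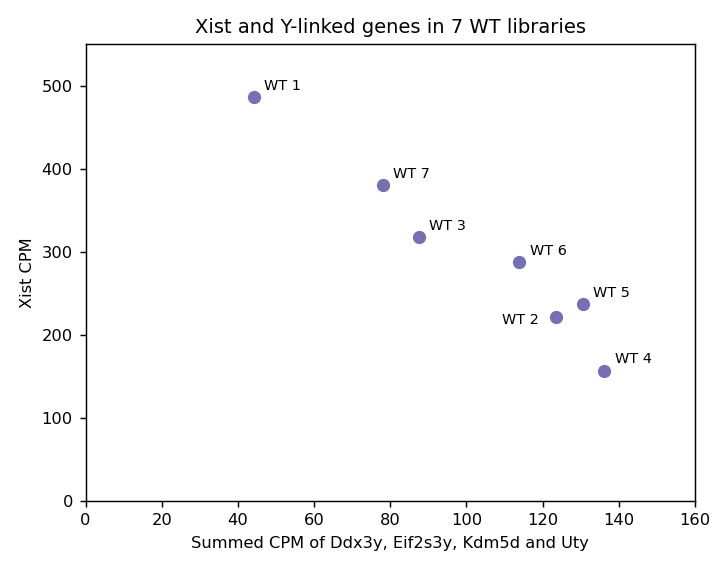
Xist against the summed Y-linked genes in CPM, with 1 labelled point per WT library. The points run from WT 1 (486 CPM of Xist, 44.1 of Y-linked genes) to WT 4 (157 and 136).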

How the data were processed

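Gene counts of paired-end RNA-seq were deposited by the authors as 1 table of raw counts per gene. The submitters' processing notes name Trimmomatic 0.36, STAR 2.5.2b, Subread 1.5.2 with featureCounts, DESeq2 and GRCm38, and strand counting is not given in the sources used here. The 7 WT columns were used, and 6 KO columns for the spread only. 1 KO column (replicate 1) was not used, because its header, 1, could be read as the position of the gene identifiers. Genes needed 10 counts in 4 of 7 libraries. CPM used TMM factors (edgeR 4.0.16, R 4.3.3), and log2 CPM a prior count of 1. Lengths are the union of exons in GENCODE annotation, and 49056 identifiers matched it. Correlations used Python 3.11.15.

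Levels were not compared between genotypes, counts of variable genes were only set side by side, and variable genes are a description with no test. Read depth was 41538291 to 48070236 counts, and a count of 0 over the 7 allows up to 3 counts. Genes named were the 20 highest by CPM and per length, the 4 markers, up to 3 highest and the lowest member of each list, the 20 most variable, the 10 steadiest, Timp2, Xist and the Y-linked genes, and others are stated where they were picked later. Some genes that this rule names are not reported here. Members and the 24 lists were chosen with earlier results of these data known, and the motifs after seeing the data. On simulated libraries of 12702 genes, the spread rule found 100 of 100 genes given an extra SD of 1, 89 of 100 given 0.75 and 0 of 12502 others. The simulation gave every gene 1 fixed coefficient of variation between cultures, set below the common value of the WT libraries (0.167). The 0 of 12502 therefore does not measure how often the rule calls genes at the spread of these data. Alternatives were DESeq2 1.42.0 size factors, library size, other filters, thresholds and lengths, and each library left out.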

Additional observations from a re-analysis of the deposited data

Results flagged for a closer look

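Each named gene and list was checked for a library far from the other 6, by its gap to the nearest library over the whole range (Dixon's test, 95% critical value). Of 143 groups tested, 17 met this, where chance gives about 1 in 20 for independent groups chosen without their values. These were not such groups, since lists were tested with their own members and some genes were named for their spread. The far library was WT 5 in 7, WT 1 in 5, WT 2 in 3 and WT 4 in 2 of them.

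In WT 5 the interferon-stimulated list stood at 4302 CPM, with the next library at 3065, and 3 of its members stood out with it, Irf7 (549 CPM, next 356), Ifi204 (516 CPM, next 405) and Oasl2 (416 CPM, next 327). WT 5 was also far above the others for the microglial stain gene Aif1 (127 CPM, next 92.5), the lipase gene Lpl (6722 CPM, next 6369) and Cnp (83.9 CPM, next 72.2). In WT 1 the ferritin gene Ftl1 was high (6371 CPM, next 5979), and so were Cd4 (6.24 CPM, next 1.47) and the lymphocyte list that holds it (11.3 CPM, next 9.16), while Actb (7204 CPM, next 7960) and Cd79b (4.92 CPM, next 6.59) were low. WT 2 was far above the others for S100a9 (6.10 CPM, next 1.83), S100a8 (4.33 CPM, next 1.46) and the monocyte and granulocyte list (15.9 CPM, next 8.36). WT 4 was so for Cxcl1 (3.10 CPM, next 1.01) and for Dnm1l (85.5 CPM, next 83.8), a gene that differs little between libraries.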

How the results depend on the processing

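The genes past the count filter were 31422 with no minimum. The 931 variable genes became 253 at an SD of 1, 2291 with no minimum level, 99 at a mean of 10 CPM and 615 with WT 4 and WT 5 both left out (576 shared; chosen after seeing the data), and 788 to 988 with 1 library left out. The first component held 33.3% with genes scaled, 56.4% at a mean of 10 CPM and 57.8% (without WT 5) to 72.5% (without WT 2). The oligodendrocyte lineage passed an adjusted p of 0.05 with the astrocyte list, making 1 relation, with the mean of log2 CPM (r = 0.955, adjusted exact permutation p = 0.0125), without WT 1 (r = 0.975, adjusted exact p = 0.02917) and without WT 5 (r = 0.942, adjusted exact p = 0.02917), so that 0 to 1 relations passed with 1 library left out and its adjusted p ran from 0.0125 to 0.4375. The cause was not tested. The astrocyte correlation with 7 of the 21 lists, none of which passed the threshold, changed sign. With 1 library left out, r ran from −0.572 to 0.201 for endothelium, −0.456 to 0.315 for homeostatic genes, −0.0754 to 0.632 for inflammatory genes, −0.103 to 0.707 for lysosome, −0.593 to 0.284 for monocytes and granulocytes and −0.450 to 0.737 for proliferation. With the mean of log2 CPM, r was 0.0909 for MHC class II, 0.428 for endothelium, −0.120 for lysosome and 0.0503 for monocytes and granulocytes. Of the other values for single genes and lists, 1929 stayed on their side of the threshold or within 1 SD, and the 3 others are the oligodendrocyte relations above. Most of the 1929 were mean levels, which leaving out 1 of 7 libraries cannot move by 1 SD. For those the outcome was fixed in advance, so the count is no evidence of stability. Leave-one-out values kept the scaling factors of all 7 libraries. No paired analysis was possible because the libraries form 1 group. Depth limits the genes under 1 CPM, whose spread includes counting error.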

Other observations

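The number of variable members was also counted in the KO cultures. In proliferation genes the count was 2 of 27 in WT and 21 of 27 in the 6 KO cultures. In Y-linked genes it was 4 of 4 in WT and 0 of 4 in KO. The shares over all genes were 7.33% in WT and 7.28% in KO. These counts were picked after the values were seen and were not tested. No KO culture was left out in turn, so the counts are not evidence of a difference between genotypes.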
